A study of Homo sapiens with 11 samples.

Results

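The genes described here are those named as solute carriers, the SLC and SLCO genes, in the peak tables of an eCLIP study of ZFP36L2 in acute myeloid leukaemia cells. Members were taken by name from the peaks enriched over input, leaving out SLC7A5 and peaks assigned to several genes at once. This gave 111 of the 6881 gene names in the tables. Of these names, 106 are transporter genes, and 5 are not: the antisense RNAs SLC12A9-AS1, SLC16A1-AS1 and SLCO4A1-AS1, the pseudogene SLC25A24P1, and SLC4A1AP, which encodes a protein named for its binding to an anion exchanger. The members held 244 of 14432 peaks in MOLM13 replicate 1, 232 of 14425 in replicate 2, 314 of 19325 in THP1 replicate 1 and 302 of 18901 in replicate 2.

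MOLM13 and THP1 are established human lines of acute monocytic leukaemia, grown here without any treatment named in the labels. In eCLIP, ultraviolet light links proteins to the RNA they touch, an antibody pulls down one protein, and the bound RNA fragments are sequenced. Per line, ZFP36L2 was immunoprecipitated in duplicate, and control IgG was used in 2 further libraries; the size-matched input was sequenced in 2 libraries for MOLM13 and 1 for THP1. The labels name no separate cultures for the duplicates, whose spread may thus be technical, and no genetic change made to either line.

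Solute carriers are membrane proteins that move amino acids, sugars, ions, metals, nucleotides and vitamins across the plasma membrane or the membranes of organelles. The SLC25 family mainly serves the inner mitochondrial membrane, and other families supply fast-growing blood cells with glucose, lactate exchange, glutamine, arginine and iron. ZFP36L2 is one of the TIS11 zinc finger proteins, which recognise AU-rich stretches of mRNA, typically in the 3' UTR, and recruit the enzymes that shorten and degrade the transcript.

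A peak was called enriched when its log2 fold was at least 3 and its −log10 p at least 3. Both values are the authors', given for each peak and each control. The input tables hold enriched peaks only, so every fold over input printed here lies above that limit, whereas a fold over IgG can lie below it. Where a line has a pair of values, replicate 1 comes first. Coordinates count from 1 on hg38, and those of an overlapping pair are of the replicate 1 peak. Reproducible peaks are those of the duplicates that overlap, on one strand, by 1 base or more. The sources used here do not give the read depth of the libraries, so the counting error of a single fold is unknown. Clusters are the regions that the authors scored whether enriched or not. They lay in 6 of 9 myeloid marker genes in both replicates of MOLM13 and in 6 of 9 in THP1. CD33, SPI1, LYZ, CSF1R and CEBPA met this in both lines. CD14 and FCGR1A met it in neither line, ITGAM did not in MOLM13 and MPO did not in THP1. Neither line had clusters in both replicates for any of the 6 lymphoid, 5 erythroid or 3 epithelial marker genes.

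A target of a line is a gene to which the input tables of both its replicates assign an enriched peak. In MOLM13, 77 SLC genes were targets, and in THP1 88. Among protein-coding SLC genes with a cluster in both replicates, 75 of 202 were targets in MOLM13, which is 37.1% (95% Wilson interval 30.8 to 44.0). The share over all other protein-coding genes with clusters was 36.3%. In THP1 the same count was 85 of 213, or 39.9% (33.6 to 46.6), against 39.6% for the other genes. The share of the other genes thus lay inside the interval of the SLC genes in both lines. For comparison, 29 of 61 genes for ABC transporters and ion pumps were targets in MOLM13 (47.5%, interval 35.5 to 59.8) and 31 of 65 in THP1 (47.7%, 36.0 to 59.6); these intervals overlap those of the SLC genes. Of the 111 members, 98 were targets of at least 1 line, and of the other 13, 11 had a peak in 1 table only. In 67 SLC genes both lines met the rule, which is 87.0% of the MOLM13 targets and 76.1% of the THP1 targets. All other genes gave 87.2% and 74.6%.

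SLC targets were longer than SLC genes that had clusters but were not targets. The median gene length was 49037 bases for targets against 32752 in MOLM13, and 49037 against 33156.5 in THP1. All other genes showed a wider gap, with 57701 against 24739 bases in MOLM13 and 58916 against 25260 in THP1. The part of gene length in the target counts was not tested.

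By substrate, the SLC25 mitochondrial carriers, the largest family, gave 18 targets among 36 genes with clusters in MOLM13 and 20 among 37 in THP1, 17 of them in both lines. Transporters of metals gave 11 of 21 and 13 of 20, among them the iron importer SLC11A2 (DMT1) and the zinc importer SLC39A8 (ZIP8), and 9 were shared. Amino acid transporters gave 14 of 23 and 14 of 26, with 13 shared. These include the glutamine transporters SLC1A5 (ASCT2), SLC38A1 and SLC38A2, the arginine transporter SLC7A1 (CAT1) and the cystine transporter SLC7A11 (xCT). Ion exchangers and chloride cotransporters gave 10 of 24 and 14 of 30, with 10 shared.

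Among nucleoside and nucleotide sugar transporters, which mostly serve the Golgi and endoplasmic reticulum, 4 of 26 were targets in MOLM13 and 6 of 24 in THP1. Sugar and monocarboxylate carriers gave 6 of 22 and 10 of 23, and the 5 shared ones include the lactate transporters SLC16A1 (MCT1) and SLC16A3 (MCT4). Phosphate and sulphate transporters gave 4 of 7 and 3 of 8. Of the carriers of organic ions, peptides and drugs, the peptide transporter SLC15A2 was the 1 target in each line, and of the vitamin transporters the ascorbate transporter SLC23A2 was. Carriers of lipids and choline gave 2 of 8 in MOLM13 and 0 of 9 in THP1. Differences between groups were not tested, several groups hold fewer than 10 genes, and the families were assigned from their known substrates. Assignment was mostly by whole family, so SLC16A10 was counted with sugars and monocarboxylates and SLC6A15 with all other families. Both carry amino acids but are not in the amino acid counts.

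**Figure D1:**
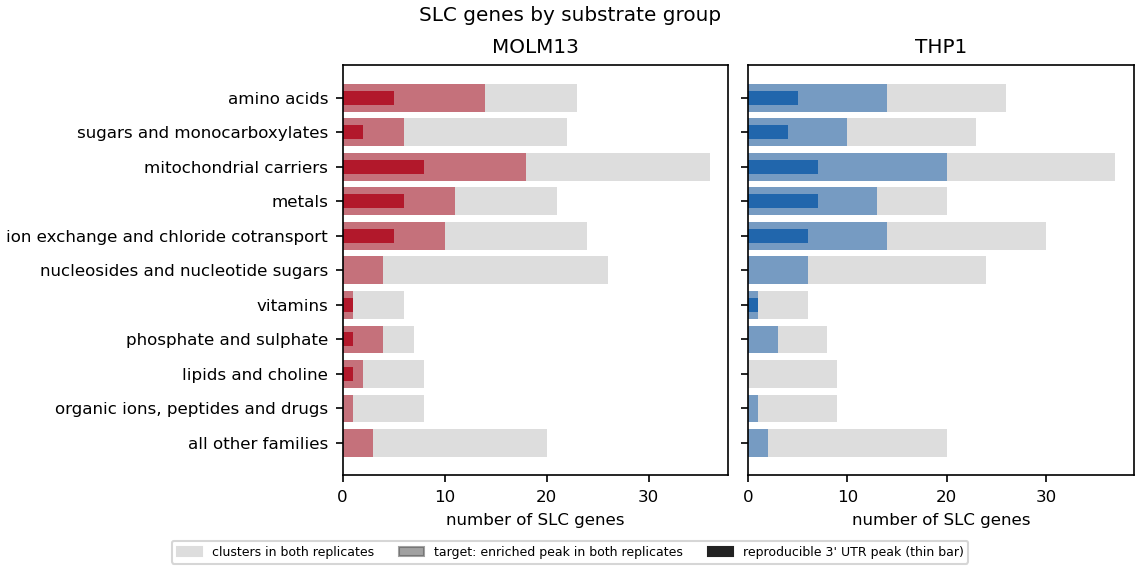
Number of SLC genes per substrate group (horizontal axis) in MOLM13 and THP1: those with clusters in both replicates (grey), targets over input (light colour) and those with a reproducible 3' UTR peak (thin dark bar). Mitochondrial carriers are the largest group, with 18 targets in MOLM13 and 20 in THP1, and no nucleoside or nucleotide sugar transporter has a reproducible 3' UTR peak.

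Most SLC peaks lay in introns, as did most peaks of other genes. The intronic share of SLC peaks was 65.6% and 58.2% in MOLM13, with 72.6% and 69.9% for THP1, against line means of 71.3% ± 2.19 (SD, n = 2) and 77.6% ± 0.85 (SD, n = 2) for all other genes. The 3' UTR share of SLC peaks was 23.8% (58 of 244 peaks) and 27.6% (64 of 232) in MOLM13, and 20.7% (65 of 314) and 22.2% (67 of 302) in THP1. The line means were 25.7% ± 2.70 (SD, n = 2) and 21.4% ± 1.05 (SD, n = 2), against 21.4% ± 1.81 and 16.3% ± 0.41 (SD, n = 2 each) for all other genes. Peaks of SLC genes therefore lay in the 3' UTR more often than those of other genes in all 4 immunoprecipitates, by 3.64 and 4.89 percentage points in MOLM13 and by 4.67 and 5.57 in THP1. In MOLM13 the 95% Wilson intervals, 18.9 to 29.5 and 22.2 to 33.7, include the share of the other genes, 20.1% and 22.7%. In THP1 they start at 16.6 and 17.9, just above the 16.0% and 16.6% of the other genes. At a log2 fold of at least 4 the excess was 5.30 and 1.58 points in MOLM13, with 1.59 and 1.93 for THP1. Among peaks also enriched over IgG, THP1 replicate 1 turned the other way, with 19.1% for SLC genes and 20.3% for the rest.

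Coding and 5' UTR peaks, although few, took a larger share in SLC genes, by less than counting error in part of the THP1 libraries. Coding sequence held 7.59% ± 1.46 of SLC peaks in MOLM13 and 4.55% ± 0.13 in THP1, against 3.78% ± 0.23 and 3.07% ± 0.081 for other genes (SD, n = 2 each). The 5' UTR held 2.74% ± 0.39 and 1.31% ± 0.50, against 0.61% ± 0.040 and 0.50% ± 0.11. The Wilson intervals of the SLC genes include the share of the other genes for coding sequence in both THP1 replicates (2.67 to 7.34 against 3.01, and 2.78 to 7.63 against 3.12) and for the 5' UTR in THP1 replicate 1 (0.33 to 2.77 against 0.42). In MOLM13, SLC25A29 alone held 4 of the 6 and 4 of the 7 SLC peaks in 5' UTRs. Peaks of 1 gene share their transcript, so the intervals cover counting error only. Between the lines, the 3' UTR share of SLC peaks was 4.24 percentage points lower in THP1, with no overlap of the duplicates. All other genes also had a lower share in THP1, 16.0% and 16.6% against 20.1% and 22.7% in MOLM13, so this was not particular to SLC genes. For the SLC peaks, the exact two-sided permutation test over the 4 immunoprecipitates gave p = 0.33, the smallest value that 2 against 2 can reach.

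**Figure D2:**
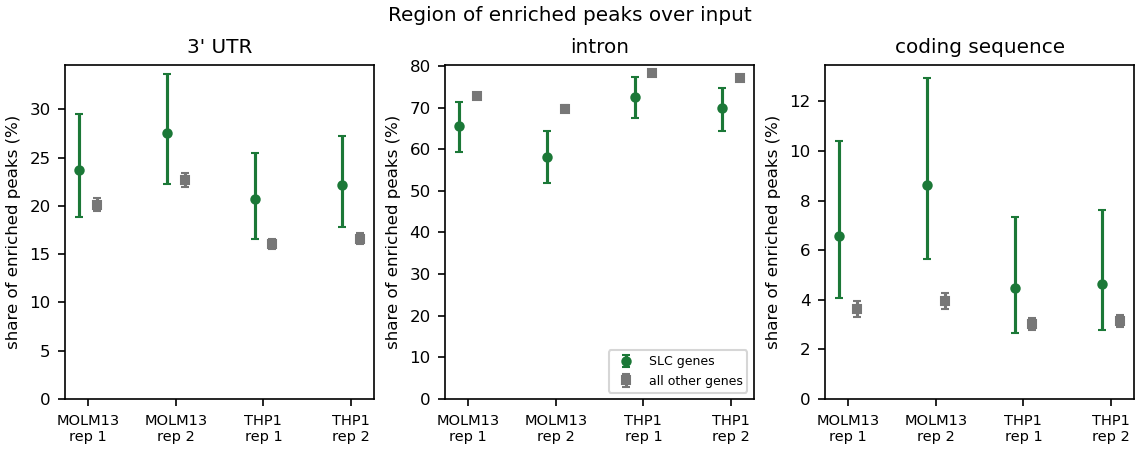
Share of enriched peaks over input (vertical axis, percent) in the 3' UTR, introns and coding sequence for SLC genes (green circles) and all other genes (grey squares) in each immunoprecipitate; bars are 95% Wilson intervals. The SLC points lie above the others for 3' UTR and coding sequence and below them for introns in all 4.

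Peak heights and reproducibility of SLC genes were close to those of the rest. The median log2 fold over input of SLC peaks was 4.33 and 4.25 in MOLM13, while THP1 gave 4.48 and 4.42, against 4.38 and 4.33, and 4.51 and 4.47, for other genes. In MOLM13, 78.3% and 87.5% of SLC peaks overlapped an enriched peak of the other replicate, where the other genes gave 78.4% and 83.8%. For THP1 the SLC peaks gave 82.5% and 87.7%, and the other genes 81.8% and 85.1%. The SD of the difference between replicates over overlapping SLC peaks was 1.06 on the log2 scale in MOLM13 (251 pairs) and 0.98 in THP1 (327 pairs). Folds that differ by less than about that much cannot be ranked.

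Peaks of SLC genes that touch or overlap were merged across the 4 immunoprecipitates into sites. The 111 genes held 310 sites. Of these, 113 sites in 64 genes (36.5%) were enriched over input in all 4 immunoprecipitates, where sites of all other genes gave 33%. There were 78 sites in 3' UTRs of 54 genes, 196 in introns of 77 genes and 24 in coding sequence of 18 genes. By region, 21 of the 3' UTR sites, 81 of the intronic sites and 8 of the coding sites were found in all 4. Sites of other genes were not counted by region, so these counts have no share to be set beside. The 3' UTR sites lay at a median of 1204 bases from the 3' end of the gene, and 18 of them lay within 500 bases of it.

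A reproducible 3' UTR peak, counted here for SLC genes only, was present in 29 SLC genes in MOLM13 and 30 in THP1, with 20 genes in both lists. The highest belonged to SLC25A11, the oxoglutarate carrier that exchanges 2-oxoglutarate for malate across the inner mitochondrial membrane. At chr17:4937630-4937658 the log2 fold over input was 6.99 and 6.81 in MOLM13 and, over the same bases, 7.15 and 7.94 in THP1. The log2 fold over IgG was 5.59 and 6.04 in MOLM13, with 4.90 and 4.61 for THP1, so all 4 immunoprecipitates were far above both controls. Over input, the lowest THP1 value of this pair lay above the highest MOLM13 value by less than the replicates of THP1 differed. The adjoining peak at chr17:4937659-4937677 reached 7.55 in MOLM13 replicate 1, above the highest THP1 replicate 1 peak of the gene (7.33), so the lines overlapped at this site. Next in THP1 came SLC11A1 (NRAMP1), which exports divalent metals from the phagosome of macrophages. Its peak at chr2:218395455-218395533 reached 5.08 and 5.60 in MOLM13, and the THP1 peak at chr2:218395439-218395534 reached 7.0 and 7.21. Both THP1 values lay above both MOLM13 values over input, and so they did over IgG, with 4.75 and 5.21 against 3.51 and 3.25.

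Further mitochondrial carriers had reproducible 3' UTR peaks in both lines. SLC25A25, an ATP-magnesium/phosphate carrier, reached 6.18 and 5.66 in MOLM13 at chr9:128108457-128108569, and 4.01 and 3.96 in THP1. The MOLM13 peak passed over IgG in both replicates (3.19 and 4.31), whereas the THP1 peak stayed just under the limit at 2.77 and 2.96. SLC25A22, a glutamate carrier, had 4.55 and 4.93 in MOLM13 at chr11:791424-791493, while THP1 gave 4.08 and 5.96, so the values of the lines overlapped. Over IgG it passed in both MOLM13 replicates (5.57 and 4.16) and in 1 of the THP1 replicates (1.83 and 3.95). SLC25A36, a carrier of pyrimidine nucleotides, was lower but even: 4.47 and 4.44 in MOLM13, 4.92 and 3.96 in THP1, at chr3:140979816-140979910. It passed over IgG in all 4 (3.49 and 3.08, and 4.26 and 3.96). SLC25A30 had 4.85 and 5.25 in MOLM13 (chr13:45393335-45393389), with 3.17 and 4.33 for THP1 at a neighbouring position (chr13:45393425-45393540), and these highest pairs did not pass over IgG. A lower MOLM13 pair of the same site, at chr13:45393415-45393518, had 3.87 and 4.26 over input and passed over IgG in both replicates (3.88 and 3.32).

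Among metal transporters, SLC41A1, a magnesium transporter, stood near the top in both lines. At chr1:205790026-205790139 its log2 fold over input was 6.28 and 5.56 in MOLM13 and, at the overlapping THP1 peak, 4.57 and 5.68. Over IgG all 4 values lay between 4.21 and 5.14. SLC30A1 (ZNT1), which exports zinc from the cell, had 4.93 and 5.80 in MOLM13 at chr1:211573094-211573185 and 3.48 and 5.49 in THP1. Its fold over IgG was 4.95 and 4.45 in MOLM13, while THP1 gave 4.23 and 2.90, so the last of these missed the limit. In SLC11A2 the peak at chr12:50981383-50981429 reached 4.38 and 3.48 in MOLM13, and an overlapping one in THP1 3.88 and 4.59. It passed over IgG in THP1 replicate 2 only, since in MOLM13 the folds of 3.40 and 3.13 came with a −log10 p below the limit.

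The amino acid transporters with reproducible 3' UTR peaks in both lines were SLC38A2, SLC7A1, SLC7A2 and SLC7A6. SLC38A2 (SNAT2), a sodium-coupled importer of neutral amino acids that is induced when these run short, had 4.49 and 5.80 in MOLM13, with 4.15 and 5.08 for THP1 within the site chr12:46358610-46358853. Over IgG the values were 4.64 and 6.77 in MOLM13, while THP1 gave 4.06 and 5.08, and 6.77 is above every other IgG fold given here for a 3' UTR pair. SLC7A1 had 5.10 and 4.33 in MOLM13, with 3.88 and 5.27 for THP1 from chr13:29509866 on, and passed over IgG in all 4, with folds from 4.23 to 6.27. SLC7A6, which exchanges basic for neutral amino acids, had 3.74 and 4.67 in MOLM13, while THP1 gave 5.71 and 3.98 at chr16:68297773-68297893. In SLC38A2, SLC7A1 and SLC7A6 the duplicates of a line differed by more than the line means did. Of the SLC7A6 peaks, 3 lie where SLC7A6OS also lies in RefSeq.

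Lactate, sugar and ion transporters follow. SLC16A3, the lactate exporter of glycolytic cells, had 5.11 and 4.28 in MOLM13 at chr17:82239032-82239107 and 4.28 and 4.11 in THP1. Its fold over IgG was 4.93 and 3.44 in MOLM13, with 2.16 and 3.11 for THP1; 12 SLC16A3 peaks lie inside the bounds of CSNK1D as well. SLC45A3, a sugar transporter, had 4.01 and 3.31 in MOLM13, while THP1 gave 5.91 and 5.15 at chr1:205658507-205658528, higher in both THP1 replicates. Over IgG that pair passed in THP1 replicate 2 alone, and the adjoining pair at chr1:205658529-205658551, with 5.69 and 5.15 over input, passed in both THP1 replicates (4.45 and 4.73). SLC4A7, a sodium bicarbonate cotransporter, had 4.42 and 3.92 in MOLM13 at chr3:27374119-27374246, with 5.28 and 3.42 for THP1. It passed over IgG in all 4, with 4.02 and 3.56 and then 4.04 and 4.42. SLC23A2, the ascorbate importer, had 5.25 and 4.43 in MOLM13 at chr20:4855763-4855835 and 3.57 and 3.70 in THP1. That pair passed over IgG in MOLM13 replicate 2 alone, whereas a further MOLM13 pair at chr20:4856723-4856788, with 5.60 and 4.31 over input, passed in both replicates (4.61 and 3.95).

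Out of those 20 genes found in both lines, 7 therefore had a 3' UTR pair that passed over IgG in all 4 immunoprecipitates: SLC25A11, SLC41A1, SLC11A1, SLC38A2, SLC25A36, SLC7A1 and SLC4A7. Among the highest pairs that missed, that of SLC25A30 in THP1 replicate 2 had a fold over IgG of 3.33, and only the −log10 p fell short. The genes that had a reproducible 3' UTR peak in THP1 alone include the glucose transporters SLC2A1 (GLUT1), with 3.28 and 3.96 over input at chr1:42926201-42926320, and SLC2A3 (GLUT3), with 3.43 and 4.15. Both passed over IgG in both THP1 replicates, and both also had 1 enriched peak at the same site in MOLM13 replicate 1, with 5.21 over input and 4.22 over IgG for SLC2A1 and 3.05 and 3.65 for SLC2A3. Reads of SLC2A3 can be shared with its close copy SLC2A14. Among those found in MOLM13 alone, SLC7A11, the cystine importer that feeds glutathione synthesis, had 4.14 and 3.71 and did not pass over IgG (2.16 and 2.35).

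**Figure D3:**
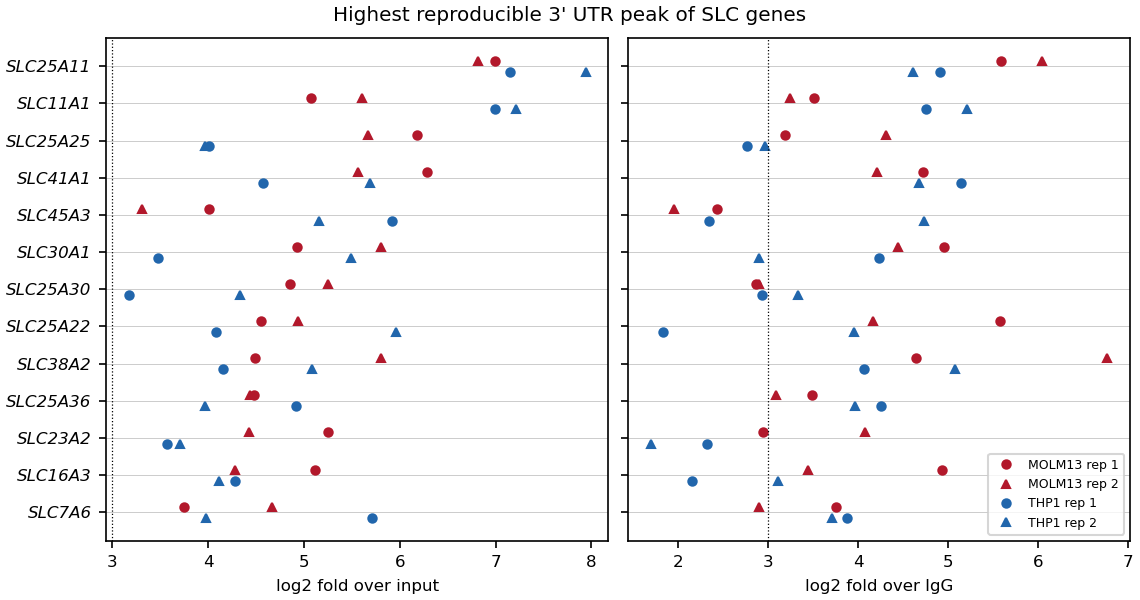
Log2 fold over input (left) and over IgG (right) of the highest reproducible 3' UTR peak of 13 SLC genes, by line (colour) and replicate (circle, replicate 1; triangle, replicate 2); the dotted line marks the limit of 3. SLC25A11 leads over input, with all 4 values from 6.81 to 7.94, and SLC11A1 is higher in THP1 than in MOLM13.

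The highest folds of any SLC gene were intronic. SLC25A16, a mitochondrial carrier linked to coenzyme A, had 9.85 and 7.31 in MOLM13 at chr10:68518713-68518790 and 8.80 and 8.99 in THP1 at chr10:68518750-68518796. Over IgG the fold was 3.40 and 2.25 in MOLM13, so it missed the limit in replicate 2, and 4.62 and 6.50 in THP1. The MOLM13 duplicates lay farther apart over input than the lines did. SLC35F2, a transporter of the nucleotide sugar transporter family, had 8.70 and 7.33 in MOLM13 at chr11:107845905-107845943 and 8.73 and 8.17 in THP1. It passed over IgG in all 4, with 4.55 and 3.40 and then 4.32 and 6.58. SLC16A1, the MCT1 carrier of lactate and pyruvate, had 7.37 and 7.76 and then 7.65 and 7.70 at chr1:112926833-112926894, with the THP1 values inside the range of the MOLM13 duplicates. Over IgG this pair had 3.93 and 2.70 in MOLM13, missing the limit in replicate 2, and 3.70 and 5.12 in THP1.

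SLC25A43 had 6.65 and 6.51 in MOLM13 at chrX:119443769-119443828, while THP1 gave 7.68 and 7.85. SLC8B1 (NCLX), the sodium/calcium exchanger of mitochondria, had 7.08 and 5.46 in MOLM13 at chr12:113313952-113314019, with 7.55 and 7.70 for THP1. SLC1A4 (ASCT1), a carrier of alanine, serine and cysteine, had 6.30 and 7.14 in MOLM13 at chr2:65004453-65004548, while THP1 gave 6.97 and 7.77. All 3 passed over IgG in both THP1 replicates, whereas MOLM13 replicate 2 passed in SLC8B1 alone. SLC25A40, a carrier linked to mitochondrial glutathione, was enriched over both controls in all 4 at the site chr7:87848338-87848430, with 6.52 and 7.29 and then 7.69 and 7.16 over input. The iron importer SLC11A2 had 6.71 and 6.12 and then 6.96 and 6.68 in an intron at chr12:51018737-51018780, above its 3' UTR peak in every immunoprecipitate. Over IgG this intronic pair had 3.14 and 1.77 in MOLM13, missing the limit in replicate 2, and 3.39 and 4.68 in THP1.

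In several further genes, the highest reproducible pair was also intronic. SLC9A8, a sodium/proton exchanger of endosomes and the Golgi, had 5.38 and 5.16 in MOLM13 and, over the same bases from chr20:49842063 on, 5.10 and 5.19 in THP1. SLC33A1, which carries acetyl-CoA into the endoplasmic reticulum, had 5.61 and 5.0 and then 6.38 and 6.20 from chr3:155833195 on. SLC15A2 (PEPT2), an importer of short peptides, had 3.54 and 4.11 and then 5.16 and 5.21, and SLC45A4 had 6.04 and 6.52 and then 6.24 and 6.08. Among these named genes SLC6A15, an importer of neutral amino acids in neurons, was lowest in every immunoprecipitate, with 3.44 and 3.01 and then 4.48 and 3.50. Over IgG, SLC9A8, SLC33A1 and SLC15A2 passed in both THP1 replicates and in at most 1 of the MOLM13 replicates.

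Reproducible intronic peaks, also counted for SLC genes only, were found in 44 SLC genes in MOLM13 and 61 in THP1. Peaks concentrated in a few genes: 5 genes held 265 of the 1092 SLC peaks (24.3%), while 44 genes had a single site. SLC39A11, a zinc importer with a gene of 446740 bases, had 71 peaks in 21 sites, of which 20 were intronic and 7 were enriched in all 4 immunoprecipitates. Over IgG, 1 of the 21 sites passed in all 4. Its highest pair had 2.44 and 2.00 over IgG in MOLM13, missing the limit, and 4.66 and 5.49 in THP1.

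SLC20A2 (PIT2), a phosphate importer, had 62 peaks in 14 sites, with 8 sites in all 4, which the map of sites shows close together in the 5' part of the gene. Of its sites, 2 passed over IgG in all 4. SLC30A6, a zinc transporter of the Golgi, had 34 peaks in 4 sites, all intronic and all enriched in all 4 immunoprecipitates. Its highest pair reached 6.18 and 6.18 in MOLM13, with 6.12 and 5.82 for THP1, and over IgG 2.02 and 0.92 in MOLM13 against 3.14 and 4.40 in THP1. Over input the 4 values lay together, and over IgG the lines did not overlap. Without SLC39A11, the 3' UTR share of SLC peaks was 27.1% in MOLM13 and 23.0% in THP1.

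**Figure D4:**
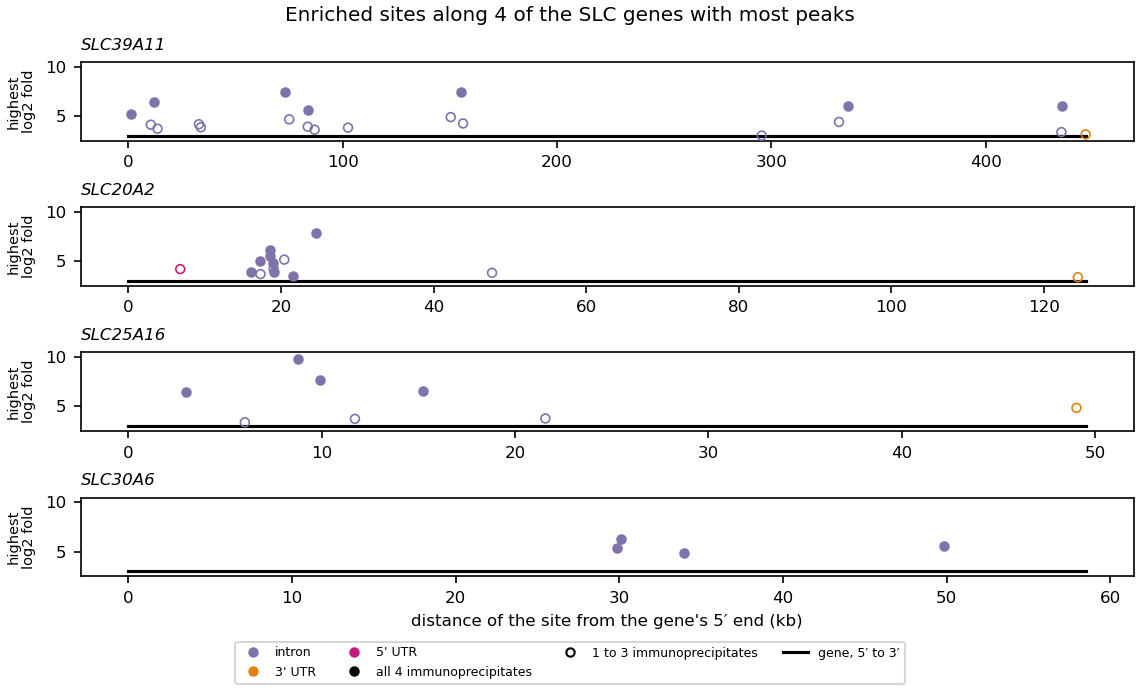
Enriched sites along 4 of the SLC genes with most peaks, by distance from the 5' end of the gene (kb) and highest log2 fold over input among the immunoprecipitates (vertical axis); filled circles were enriched in all 4, open circles in 1 to 3, and the black line is the gene. The 21 sites of SLC39A11 spread over a gene of 446740 bases, whereas SLC30A6 has 4 sites, all filled.

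Sites in coding sequence and the 5' UTR were few, and several of them were enriched over both controls. Of 8 coding sites found in all 4 immunoprecipitates, 5 passed over IgG in all 4: SLC16A1, SLC1A4, SLC20A1, SLC35B4 and SLC38A10. At SLC38A10 the MOLM13 replicate 2 peak that passed (3.85 over IgG) was annotated to a 5' splice site. The coding peak beside it had 1.91 over IgG and did not pass. SLC16A1 at chr1:112917947-112918069 gave 6.04 and 6.66 for MOLM13 over input and 5.83 and 7.59 for THP1, with 4.25 and 3.50 and then 5.58 and 5.59 over IgG. SLC1A4 at chr2:65016542-65016678 had 5.33 and 5.39 and then 5.40 and 5.37, the most even of these sites. SLC35B4, a Golgi transporter of nucleotide sugars, had 5.94 and 5.03 and then 4.77 and 5.86 at chr7:134309368-134309475, with 5.96 and 3.67 and then 5.11 and 4.85 over IgG.

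SLC20A1 (PIT1), a phosphate importer, had 5.19 and 5.18 and then 6.91 and 4.70 at chr2:112646733-112646842; the authors' tables assign the highest pair there to the 5' UTR in MOLM13 and to coding sequence in THP1. In the 5' UTR, SLC25A29, a mitochondrial carrier of arginine and lysine, had 7.70 and 7.42 in MOLM13, while THP1 gave 6.0 and 7.13 at its highest pairs from chr14:100294029 on. It missed the IgG limit in MOLM13 replicate 2 (2.37). The 5' UTR site of SLC38A1 (SNAT1), a glutamine importer, passed over both controls in all 4, with 3.57 and 5.06 and then 4.11 and 4.08 over input at chr12:46243231-46243318.

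Both lines shared most of these genes, and some had peaks in one alone. Of the 88 SLC targets in THP1, 13 had no enriched peak in either MOLM13 replicate, where all other genes gave 770 of 4924. Of the 12 protein-coding genes among these 13, 10 had MOLM13 clusters in both replicates. The highest was SLC8A1 (NCX1), the plasma membrane sodium/calcium exchanger, with 10 and 8 enriched peaks in the THP1 replicates and none in MOLM13. Its highest intronic pair, at chr2:40375939-40375983, reached 6.53 and 6.46, and its fold over IgG was 3.70 and 3.87. SLC16A10, a transporter of aromatic amino acids and thyroid hormone, had 5.58 and 5.36 at chr6:111167577-111167713, and no cluster lay on it in either MOLM13 replicate. SLC9A9, an endosomal sodium/proton exchanger, had 4.71 and 4.70, and SLC35G2 had 4.38 and 5.29. SLC2A9, a urate transporter, had 4.63 and 4.19 and missed the −log10 p limit over IgG. The pseudogene SLC25A24P1 had 6.18 and 5.99.

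In MOLM13, 6 of 77 SLC targets had no enriched THP1 peak, where all other genes gave 284 of 4214. These 6 were SLC35B1, SLC37A1, SLC27A2, SLC31A2, SLC16A7 and SLC43A1. All 6 had clusters in both THP1 replicates, and the first 4 had overlapping MOLM13 peaks. Their folds were low: 3.77 and 3.93 in the coding sequence of SLC35B1, which carries ATP into the endoplasmic reticulum, 3.93 and 3.61 in the 3' UTR of SLC37A1, a sugar phosphate exchanger, and 4.33 and 3.04 in that of the copper transporter SLC31A2. SLC27A2, which activates very long chain fatty acids, had 3.17 and 3.38 in coding sequence and was the 1 gene of these 4 to pass over IgG in both replicates (4.51 and 3.61). Over all SLC sites, 41 were enriched in both THP1 replicates and neither MOLM13 replicate, 32 of them intronic, and 12 the other way round. Sites of other genes were not counted in this way. Over all genes, THP1 had more peaks, 19325 and 18901 against 14432 and 14425 in MOLM13. RNA levels were not measured here beside the input, so amount of RNA and binding per RNA molecule cannot be told apart.

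The IgG control was not used in choosing the members. The share of input-enriched SLC peaks that were also enriched over IgG at the same coordinates was 45.1% and 28.0% in MOLM13, with 43.3% and 62.6% for THP1. All other genes gave 44.9%, 28%, 43.1% and 58.9%. The median log2 fold of all clusters over IgG was 0.28 and −0.60 in MOLM13, while THP1 gave 0.0019 and 0.38, lowest where the fewest peaks passed. By gene, 33 of 77 SLC targets in MOLM13 (42.9%) had peaks passing over both controls in both replicates, against 41.5% of other targets. In THP1 it was 54 of 88 (61.4%), against 62.1%.

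By region, the 3' UTR peaks of SLC genes were near those of other genes in 3 immunoprecipitates and lower in 1. In MOLM13, 35 of 58 SLC 3' UTR peaks (60.3%) and 31 of 64 (48.4%) passed over IgG, where other genes gave 58.8% and 49.6%. In THP1, 26 of 65 passed in replicate 1 (40.0%, interval 29.0 to 52.1) and 42 of 67 in replicate 2 (62.7%), against 54.7% and 65% for other genes. The share of the other genes lies above the interval in THP1 replicate 1 only, and that difference was not seen in replicate 2. Intronic SLC peaks passed in 40.0% and 14.1% in MOLM13, with 43.9% and 61.1% for THP1, against 40.9%, 20.6%, 40.9% and 58.7%. Of the coding SLC peaks, those that passed were 8 of 16 and 11 of 20 in MOLM13, with 5 of 14 and 10 of 14 for THP1, where other genes gave 50.7%, 39.4%, 46.9% and 52.3%. In MOLM13 the SLC peaks thus passed more often in 3' UTRs than in introns, by both replicates, and in THP1 the order of the regions differed between replicates.

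A set of 21 SLC genes, with no matching count for other genes, were targets over both controls in both replicates of both lines. They include the amino acid transporters SLC1A4, SLC38A1, SLC38A2, SLC38A10 and SLC7A1, the mitochondrial carriers SLC25A11, SLC25A36 and SLC25A40, the metal transporters SLC11A1, SLC39A8, SLC39A11 and SLC41A1, and the phosphate importers SLC20A1 and SLC20A2. Also among them are SLC16A1, SLC23A2, SLC35B4, SLC35F2, SLC4A7 and SLC8B1. As sites, 21 passed over both controls in all 4 immunoprecipitates, 8 of them intronic, 7 in 3' UTRs, 5 in coding sequence and 1 in a 5' UTR.

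**Figure D5:**
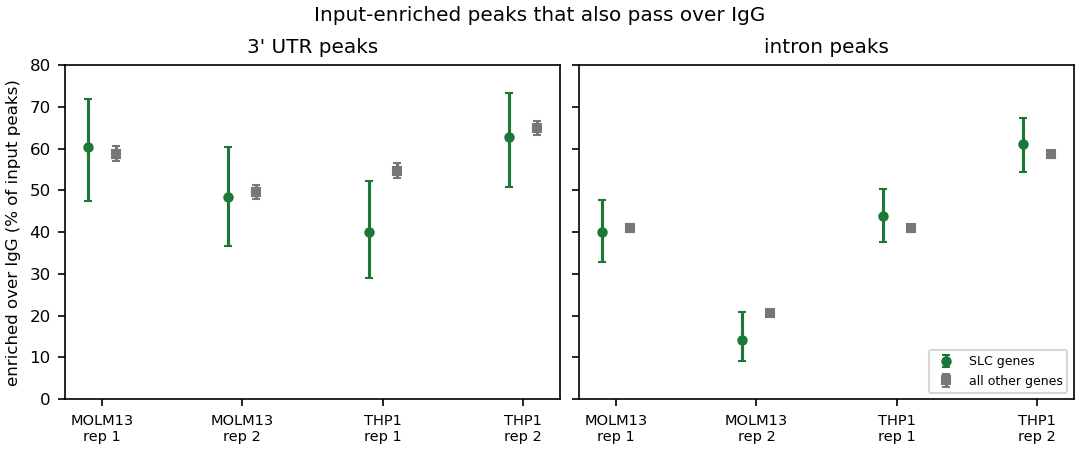
Share of input-enriched peaks that were also enriched over IgG (vertical axis, percent), for 3' UTR peaks (left) and intronic peaks (right) of SLC genes (green circles) and all other genes (grey squares); bars are 95% Wilson intervals. In THP1 replicate 1 the SLC 3' UTR peaks (40.0%) lie below those of other genes (54.7%).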

How the data were processed

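Per the labels' protocols, lysates of crosslinked cells were immunoprecipitated with anti-ZFP36L2 or IgG. Tools listed in the submitters' processing notes are STAR 2.5.0c, cutadapt 1.14, edgeR and Picard 2.6.0, and the builds hg38, hg19 and GRCh37. Not given in the sources used here: the peak caller, how folds were scaled, and the test behind p. The deposited tables give the authors' log2 fold and −log10 p (capped at 400) per peak, called in each immunoprecipitate by itself. It is not stated whether both THP1 folds rest on the 1 THP1 input, in which case the THP1 replicates share that control.

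IgG lists, numbered otherwise for THP1, were tied to input tables by identical coordinates: at least 99.8% of peaks matched the list of their own immunoprecipitate and under 1% the other. Overlaps were computed in Python 3.11.15 with pandas 2.3.3, and tested on simulated intervals. Regions are as the authors annotated them. All 111 names matched a RefSeq symbol (GRCh38.p14). Peaks were compared with the bounds of protein-coding genes only, strand not compared. Of the 1092 peaks, 97.8% lay in the protein-coding gene of their name, and 3.3% lay in a protein-coding gene of another name. Peaks of the antisense RNAs and the pseudogene could not count toward the 97.8%. Genes with clusters were found by RefSeq bounds, without strand. A gene's values are those of its highest overlapping pair in that region unless the text says otherwise. A site merges touching or overlapping peaks of 1 gene and is counted under the region of its highest peak.

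Members, groups, alternatives and rules were chosen with earlier results of these data known. Named genes were, per line, the 10 highest 3' UTR and 6 highest intronic genes by the lower replicate, up to 6 targets of 1 line, the 5 genes with most peaks, those whose highest pairs passed or missed over IgG throughout, up to 6 with coding or 5' UTR peaks, and up to 2 per group shared by the lines. Others (SLC2A1, SLC2A3, SLC7A11, SLC38A1, SLC7A2, SLC39A8, SLC1A5, SLC16A7 and SLC43A1) were named after their values were seen. Peaks given to several genes (38 peaks, 4 names) were left out. Some genes that these rules name are not reported here.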

Additional observations from a re-analysis of the deposited data

How the results depend on the processing

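Raising the log2 fold limit to 4 left 48 SLC targets in MOLM13 and 44 shared by the lines, and asking for enrichment over IgG as well left 33 in MOLM13, 54 in THP1 and 21 shared. The other settings, among them overlapping peaks, a −log10 p of at least 5 and transporter genes only (added after seeing the data), kept all 3 counts within 1.5 times. With 1 replicate, targets numbered 81 to 88 in MOLM13, 92 to 96 in THP1 and 69 to 78 shared. The 3' UTR share in MOLM13 was 20.4% at a log2 fold of 4, 32.3% with each gene counted once and 39.8% among peaks passing over IgG; in THP1 it was 14.2% and 27.8% for the first 2 of these, 22.5% with touching peaks merged, 19.3% for reproducible peaks and 23.0% without SLC39A11, a setting added after seeing the data. The intronic share was, in the same order, 68.0%, 52.2% and 43.7% in MOLM13 and 78.6%, 62.4%, 68.9%, 73.7% and 69.1% in THP1. It ranged from 58.2% to 65.6% in MOLM13 and 69.9% to 72.6% in THP1 with 1 replicate, and the 3' UTR share from 23.8% to 27.6% and 20.7% to 22.2%. The difference in 3' UTR share of SLC peaks, THP1 minus MOLM13, was negative under all settings run, from −19.1 to −2.76 percentage points. The share of all other genes was lower in THP1 as well. The mean share of peaks passing over IgG in MOLM13 rose from 36.5% to 54.4% when the IgG fold limit was 1; with 1 replicate it ranged from 28.0% to 45.1% there and from 43.3% to 62.6% in THP1. The median log2 fold was 4.48 and 4.77 (MOLM13, THP1) for reproducible peaks and 4.68 and 4.91 for the highest peak per gene. Replicate overlap was 63.5% and 63.7% when at least 50% of each peak had to overlap, and 93.9% and 93.3% when the log2 fold limit was 4. The cause of these shifts was not tested beyond the fewer peaks or genes that each setting counts. No paired analysis was possible because nothing ties the same-numbered duplicates of different lines to each other, and no result other than the permutation of 4 values comes from a test. The search for AU-rich motifs was not run, since no genome sequence was used here. Depth per library is unknown, so a gene with no enriched peak may lack reads, and the interval of a single fold cannot be given.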

Other observations

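Outside the genes described above, 2 zinc transporters had reproducible 3' UTR peaks in THP1 alone, SLC39A1 (3.51 and 3.67 over input, 3.85 and 3.99 over IgG) and SLC39A9 (3.13 and 3.33 over input, 2.37 and 4.13 over IgG). SLC12A2 (NKCC1), which brings sodium, potassium and chloride into the cell, had a 3' UTR peak in THP1 alone whose log2 fold was 3.88 and 3.19 over input; over IgG it was 4.22 and 4.18. Its relative SLC12A4 (KCC1), which exports potassium and chloride, had 3' UTR peaks in both lines, 4.46 and 3.97 in MOLM13 with 3.88 and 4.02 for THP1, and missed the IgG limit in MOLM13 replicate 2 only. These genes were named after their values were seen.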
